A study of Homo sapiens with 6 samples.

Results

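The 7 enzymes examined here belong to the mevalonate pathway, between the making of acetoacetyl-CoA and that of farnesyl diphosphate. They were found in the deposited count table by gene symbol, as ACAT2, HMGCS1, MVK, PMVK, MVD, IDI1 and FDPS, and all 7 of 7 were present among 26485 genes and passed the filter on low counts. The libraries came from H9, a human T lymphoma line long kept in culture and labelled as cutaneous T lymphocytes. There were 3 libraries from H9 cells given the test compound, code-named PA4, at 1 µM for 24 h, and 3 libraries from H9 cells given the vehicle DMSO for 24 h, called control below. Polyadenylated RNA was sequenced, and no label ties the replicates of a group to separate cultures. The p-values therefore rest on the spread between libraries, part or all of which may be technical.

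The mevalonate pathway builds isoprenoid units from acetyl-CoA. Thiolase and synthase steps make HMG-CoA, which is reduced to mevalonate, and mevalonate is phosphorylated, decarboxylated and isomerised before the units are joined into farnesyl diphosphate. Farnesyl diphosphate is the branch point for sterols on one side and for protein prenylation, ubiquinone and dolichol on the other. In many cell types the genes of the pathway are transcriptional targets of SREBP-2, a membrane-bound factor released when sterols in the endoplasmic reticulum are low.

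Library totals were 18282212 to 22875191 counts with PA4 and 19033853 to 19260434 counts in control. Of 8 T cell markers, 6 were tested and 0 were called, and their summed level was 691 to 706 counts scaled to library size (counts per 1e+06, CPM) with PA4 and 702 to 722 CPM in control. CD4 and CD2 were near 0, with at most 12 counts of CD4 and 1 of CD2 in a library that held at least 2099 counts of CD3E. Of the 6 marker lists of other cell types, the epithelial one summed highest, mostly from EPCAM. It was at 141 to 142 CPM with PA4 and 133 to 137 CPM in control. The natural killer list summed to 25.2 to 26.3 CPM with PA4 and 24.7 to 29.4 CPM in control, mostly from NCR3. The B cell list summed to 19.5 to 21.4 CPM with PA4 and 18.5 to 21.9 CPM in control, mostly from CD79A and CD79B. The myeloid, fibroblast and pluripotency lists summed to at most 1.78 CPM in any library. The pluripotency genes NANOG, SOX2 and DPPA4 were at 0 counts in every library, and POU5F1 and LIN28A had at most 2 and 1. The share of these markers in the results below was not tested. In bulk RNA, fewer cells making a transcript and less of it per cell cannot be told apart.

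With PA4, transcripts of 5 of the 7 enzymes rose and 0 fell. HMGCS1, the synthase of HMG-CoA, rose 1.94-fold, MVD, the decarboxylase, 1.48-fold, IDI1, the isomerase, 1.42-fold, MVK, the mevalonate kinase, 1.38-fold, and ACAT2, the cytosolic thiolase, 1.27-fold. FDPS, the synthase of farnesyl diphosphate, was at 1.12-fold and PMVK, the phosphomevalonate kinase, at 1.05-fold, and neither was called. The test was edgeR's quasi-likelihood test on raw counts with Benjamini-Hochberg adjustment over 12107 genes, and genes with an adjusted p below 0.05 are said to be called. Over all of these genes 0.215% were called higher with PA4. The PA4 libraries all lay above the control libraries for 6 of the 7 enzymes, against 5.91% of all tested genes. An unadjusted p under 0.05 with a higher level was found for 6 of the 7, against 2.69% of all tested genes. DESeq2 and limma-voom each called the same number, 5 of 7, where 0.397% and 0.206% of all genes they tested were called higher.

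**Figure D1:**
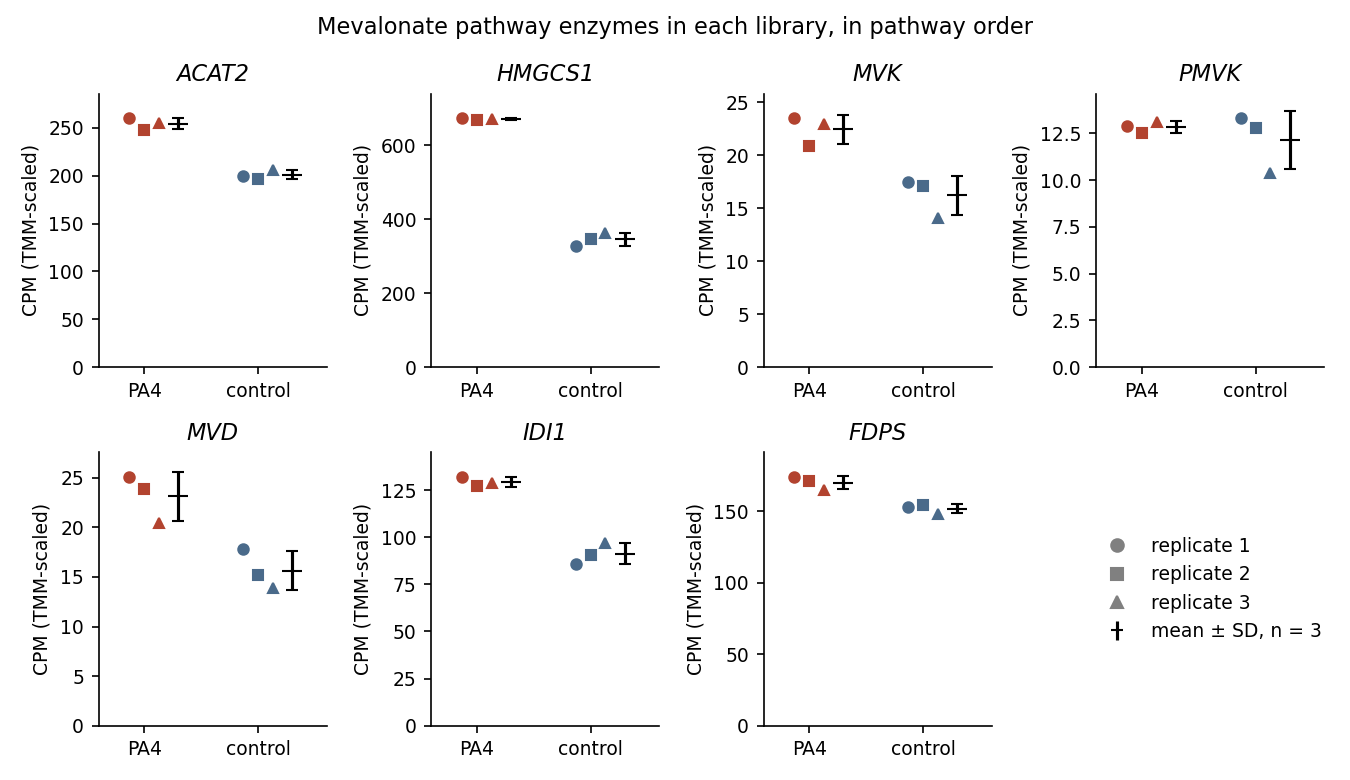
CPM of each enzyme in each library on a linear axis from 0, PA4 left of control, with the mean and SD of 3 libraries beside the points. The groups are apart in every panel except PMVK, where control replicates 1 and 2, at 13.3 and 12.8 CPM, lie at the level of the PA4 libraries.

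ACAT2 makes acetoacetyl-CoA from acetyl-CoA in the cytosol. The gene is on the plus strand of chromosome 6 of GRCh38, at 159762045 to 159779112. It had 259.8, 248 and 255 CPM in PA4 replicates 1 to 3, against 199.9, 197 and 206 CPM in control replicates 1 to 3. The groups were far apart relative to their spread, at 254 ± 6.07 CPM with PA4 and 201 ± 4.51 CPM in control (SD, n = 3 each). ACAT2 rose by 0.34 ± 0.036 log2 (SE), with an edgeR adjusted p of 4.37e-05, and the call held in 13 of 13 alternative settings. ACAT2 overlaps genes on the other strand. In GENCODE release 29 it shared 26.54% of its exon bases with SOD2, the mitochondrial superoxide dismutase, and 9.23% with TCP1, a subunit of the cytosolic chaperonin. SOD2 was at 0.047 ± 0.036 log2 (SE), with 177 to 180.4 CPM in PA4 libraries and 169 to 177 CPM in control libraries. Before rounding all PA4 libraries of SOD2 lay above all its control libraries, as for 5.91% of all tested genes. TCP1 was at -0.017 ± 0.025 log2 (SE), with means of 1955 CPM with PA4 and 1979 CPM in control. Neither partner was called, with edgeR adjusted p-values of 0.993 each. The same annotation puts 33.91% of the exon bases of ACAT2 under SOD2-OT1, also on the other strand, which was not analysed here. Whether the counting used strand is not given in the sources used here, so how many ACAT2 reads came from these partners was not tested. The percentages here and below are of the exon bases in GENCODE 29, not of the deposited gene models. The deposited model of ACAT2, at 1909 bases, was shorter, as were those of MVK, IDI1 and FDPS. That of HMGCS1 was longer. The shares of the deposited models that overlap other genes were not tested.

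HMGCS1 joins acetoacetyl-CoA and acetyl-CoA to HMG-CoA. Its span on the minus strand of chromosome 5 is 43287470 to 43313412. PA4 replicates 1 to 3 had 672, 668 and 669 CPM, against 327, 347 and 362 CPM in control replicates 1 to 3. The PA4 libraries were within 4 CPM of each other, and the lowest of them was far above the highest control library. The log2 fold change was 0.96 with a 95% interval of 0.88 to 1.03, and HMGCS1 ranked 1 by p-value and 4 by fold change among all tested genes. Its edgeR adjusted p was 8.62e-11 and stayed at or below 3.5e-08 in the 13 alternative settings. In GENCODE 29 it shared 14.95% of its exon bases with AC114947.2 on the other strand, which was not analysed here. The stretch before its start is shown because HMGCS1 changed most of the 7, with capitals marking CCAAT, the box bound by NF-Y, and GGGCGG, the box bound by Sp1, on either strand. It is from RefSeq, GRCh38.p14, chr5:43313513-43313662, minus strand, 250 to 101 bases before the start.
HMGCS1: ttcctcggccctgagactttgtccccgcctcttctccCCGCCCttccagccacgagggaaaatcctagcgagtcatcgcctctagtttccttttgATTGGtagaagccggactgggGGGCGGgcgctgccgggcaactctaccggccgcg

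MVK phosphorylates mevalonate. The gene spans 109573272 to 109598125 on the plus strand of chromosome 12. Its transcripts were much scarcer, with 23.5, 20.9 and 23 CPM in PA4 replicates 1 to 3, against 17.5, 17.1 and 14.1 CPM in control replicates 1 to 3. The groups did not overlap, but control replicate 3 lay well below the other control libraries. MVK rose by 0.47 ± 0.088 log2 (SE) with an edgeR adjusted p of 0.0339. This call was lost without PA4 replicate 1, PA4 replicate 3 or control replicate 2, at edgeR adjusted p-values of 0.258, 0.156 and 0.136, while the log2 fold change stayed between 0.38 and 0.52 in the 13 alternative settings. MMAB, an enzyme of cobalamin metabolism that starts beside MVK on the other strand and shared 4.72% of the exon bases of MVK, was at 0.11 ± 0.064 log2 (SE) with an edgeR adjusted p of 0.976.

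PMVK turns phosphomevalonate into diphosphomevalonate. It lies on chromosome 1 at 154924740 to 154942658 on the minus strand. It had 12.9, 12.5 and 13.1 CPM in PA4 replicates 1 to 3, against 13.3, 12.8 and 10.4 CPM in control replicates 1 to 3. Control replicates 1 and 2 were at the level of the PA4 libraries, and control replicate 3 alone was lower. The log2 fold change was 0.076 with a 95% interval of -0.13 to 0.28 and an edgeR adjusted p of 0.993, and it was -0.024 ± 0.093 (SE) without control replicate 3. In linear terms the interval ran from 0.915-fold to 1.22-fold, so it holds no change as large as the estimates for the 5 called enzymes. PMVK was called in 0 of 13 alternative settings.

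MVD, on the minus strand of chromosome 16 at 88651940 to 88663091, decarboxylates diphosphomevalonate to isopentenyl diphosphate. It had 25.1, 23.9 and 20.4 CPM in PA4 replicates 1 to 3, against 17.8, 15.2 and 13.9 CPM in control replicates 1 to 3. The groups did not overlap, although the lowest PA4 library stood only a little above the highest control library. The log2 fold change was 0.57 ± 0.10 (SE) with a 95% interval of 0.36 to 0.77 and an edgeR adjusted p of 0.0157. The call was lost without PA4 replicate 1, PA4 replicate 2 or control replicate 2, at edgeR adjusted p-values of 0.139, 0.0664 and 0.152, while the log2 fold change stayed between 0.49 and 0.67 in the 13 alternative settings. The stretch before MVD, RefSeq, GRCh38.p14, chr16:88663149-88663341, minus strand, 250 to 58 bases before the start, is shown because it held 3 CCAAT boxes, in capitals with the GGGCGG box.
MVD: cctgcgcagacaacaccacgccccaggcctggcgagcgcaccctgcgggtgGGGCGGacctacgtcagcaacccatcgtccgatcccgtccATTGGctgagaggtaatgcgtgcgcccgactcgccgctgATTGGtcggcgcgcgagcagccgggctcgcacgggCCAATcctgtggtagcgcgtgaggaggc

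IDI1, on the minus strand of chromosome 10 at 1039152 to 1056704, interconverts isopentenyl and dimethylallyl diphosphate. It had 132, 127 and 129 CPM in PA4 replicates 1 to 3, against 85.8, 90.6 and 97 CPM in control replicates 1 to 3. All PA4 libraries were well above all control libraries, which were spread more widely. IDI1 rose by 0.50 ± 0.047 log2 (SE) with an edgeR adjusted p of 1.02e-05, and the call held in 13 of 13 alternative settings. IDI2-AS1, which shared 14.8% of the exon bases of IDI1 on the other strand, had 1 to 4 counts per library. RefSeq gives IDI1 more than 1 start. The window before the start at 1056704, the end of the gene span, held 0 CCAAT and 3 GGGCGG boxes and is not shown. The stretch shown, with the CCAAT and GGGCGG boxes in capitals, lies inside the gene span, before the start at 1049119. It is from RefSeq, GRCh38.p14, chr10:1049171-1049369, minus strand, 250 to 52 bases before that start.
IDI1: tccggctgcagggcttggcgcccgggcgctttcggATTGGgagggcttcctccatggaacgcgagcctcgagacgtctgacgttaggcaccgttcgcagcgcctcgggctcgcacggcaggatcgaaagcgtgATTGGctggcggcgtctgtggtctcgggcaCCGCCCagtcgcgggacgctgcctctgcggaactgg

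FDPS joins isoprenoid units into farnesyl diphosphate. It lies on chromosome 1 at 155308866 to 155320665 on the plus strand. It had 174, 171 and 165 CPM in PA4 replicates 1 to 3, against 153, 154 and 148 CPM in control replicates 1 to 3. The groups did not overlap, with 169.9 ± 4.3 CPM with PA4 and 152 ± 3.37 CPM in control (SD, n = 3 each). The log2 fold change was 0.17 with a 95% interval of 0.085 to 0.25, an unadjusted p of 0.000481 and an edgeR adjusted p of 0.139. FDPS was called in 4 of 13 alternative settings, among them no low-count filter, GC-corrected offsets and the fit without control replicate 1, over a range of adjusted p-values of 0.00131 to 0.912. Over all genes these 3 settings called 0.307%, 0.719% and 0.409% higher with PA4, in the same order. RUSC1-AS1, which shared 18.64% of the exon bases of FDPS on the other strand, had 0 to 5 counts per library. The stretch before FDPS, RefSeq, GRCh38.p14, chr1:155308616-155308747, plus strand, 250 to 119 bases before the start, is shown for comparison with the called genes, with a CCAAT box in capitals. The whole window of 250 bases held 3 CCAAT and 1 GGGCGG, the others in bases not shown.
FDPS: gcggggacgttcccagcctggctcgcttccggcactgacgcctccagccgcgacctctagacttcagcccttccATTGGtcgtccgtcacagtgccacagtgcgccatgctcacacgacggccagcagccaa

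**Figure D2:**
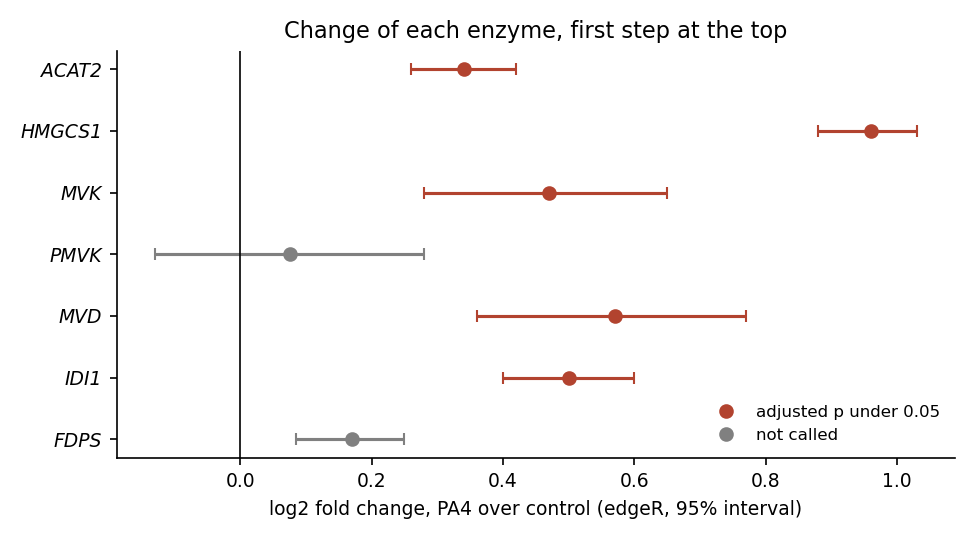
The log2 fold change of PA4 over control for each enzyme with its 95% interval from edgeR, first step at the top, in red where the adjusted p was under 0.05. The interval of HMGCS1, 0.88 to 1.03, lies above those of the other enzymes, and the interval of PMVK spans 0.

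Promoter windows of 250 bases before a RefSeq start were searched for 4 textbook motifs on both strands. Of the 7 enzymes 6 had an entry, with 9 windows in all. CCAAT stood 2 times in the printed window of HMGCS1 and 0 times in that of its other start, at 43313181. It stood 5 times in the window of MVK, 3 times in those of MVD and FDPS and 0 times in that of PMVK. In 2 of the 3 windows of IDI1 it stood 2 and 3 times. In the one with 3, before the start at 1048886, 2 matches overlap, at 132 to 128 and 129 to 125 bases before that start. These counts include bases not shown. Of 35116 windows over all genes 32% held CCAAT at least once and 9.53% at least 2 times. TCACNCCA, a short form of the sterol regulatory element in which N is any base, was in the window of MVK and in 0 of the other 8, against 3.2% of all windows. GGGCGG was in 42.6% and CACGTG, an E-box, in 6.34% of all windows, and of the 9 windows 9 held GGGCGG and 0 held CACGTG. The windows of MVK and PMVK lie within the gene spans given above, and all 250 bases of each are annotated as untranslated parts of transcripts in GENCODE 29. The IDI1 windows before the starts at 1048886 and 1049119 also lie within the gene span, as does most of the HMGCS1 window before 43313181. A match or its lack describes these letters in these windows only.

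The enzymes differed in how much their levels changed relative to each other. Levels are given per length below, as CPM per kilobase of transcript (RPKM), with the gene model length that the authors deposited. In PA4 libraries HMGCS1 stood at 123 ± 0.37 RPKM, above FDPS at 103 ± 2.61 RPKM (SD, n = 3), and below ACAT2 at 133 ± 3.18 RPKM. In control libraries HMGCS1 stood at 63.3 ± 3.21 RPKM, below FDPS at 92 ± 2.05 RPKM and ACAT2 at 105 ± 2.36 RPKM (SD, n = 3). IDI1 followed at 60.5 ± 1.36 RPKM with PA4 and 42.7 ± 2.61 RPKM in control. MVD, MVK and PMVK were far below the level of ACAT2, at 12.4, 10.8 and 9.87 RPKM with PA4 and 8.43, 7.8 and 9.35 RPKM in control. Neighbours in the order of these 3 overlapped in both groups, whereas those among the other 4 did not. PMVK was the lowest of the 3 with PA4 and the highest of the 3 in control. The order of enzymes within a group depends on the deposited lengths. In CPM, PMVK was the lowest of the 3 in both groups, at 12.8 with PA4 and 12.1 in control. HMGCS1 was above FDPS in both, at 669.9 and 169.9 CPM with PA4 and 345 and 152 CPM in control.

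HMGCS1 took 26.7%, 27.4% and 27.3% of the summed RPKM of the 7 enzymes in PA4 replicates 1 to 3, against 18.4%, 19.3% and 20% in control replicates 1 to 3. The ratio of FDPS to HMGCS1 was 0.854, 0.847 and 0.816 in PA4 replicates 1 to 3, against 1.54, 1.47 and 1.35 in control replicates 1 to 3. The ratio of PMVK to MVK, successive kinases, was 0.88, 0.952 and 0.912 with PA4, against 1.21, 1.2 and 1.18 in control. Both ratios were lower in every PA4 library than in every control library. Of 6 ratios of an enzyme to HMGCS1 the groups lay apart in 6, as they did for 97.4% of all other tested genes set over HMGCS1, so these ratios restate the change of HMGCS1. Of the other 4, ratios of an enzyme to the one before it, the groups lay apart in 3. The share of all genes whose groups lie apart when set over these enzymes was not computed. Whether these 3 show more than the change of 1 enzyme in each pair was therefore not tested. The 9 of 10 ratios with groups apart had an exact two-sided permutation p of 0.1 each, or 0.111 after Benjamini-Hochberg adjustment over the 10. With 3 libraries against 3 no p below 0.1 is possible. The exception was IDI1 over MVD, at 4.9 ± 0.512 with PA4 and 5.14 ± 0.935 in control (SD, n = 3 each), with an exact p of 0.7.

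**Figure D3:**
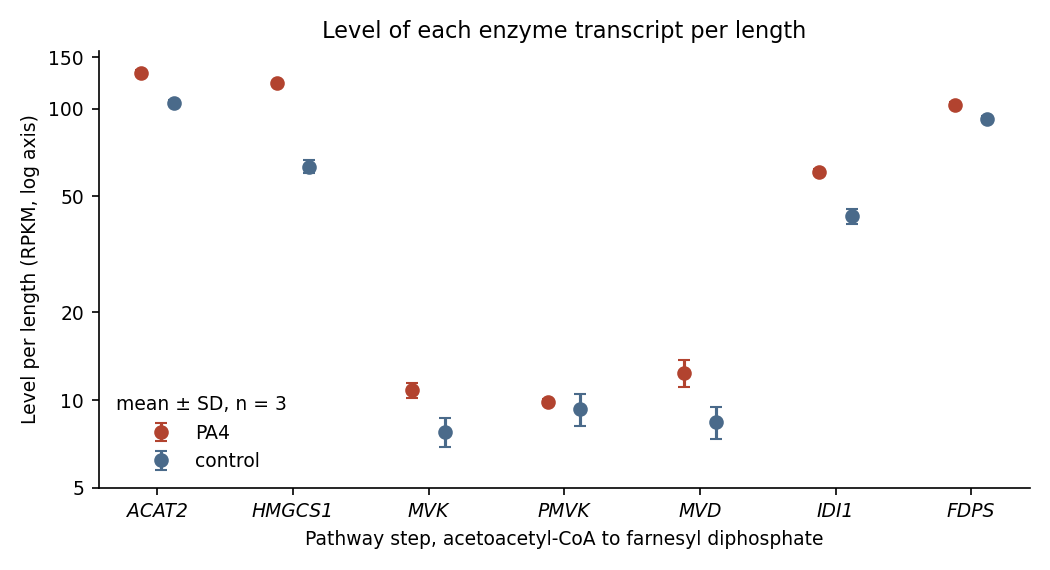
Mean level of each enzyme per length in RPKM on a log axis, with SD of 3 libraries, PA4 left of control, in pathway order. HMGCS1 is at 123 RPKM with PA4 and 63.3 RPKM in control and passes FDPS per length, and the 3 enzymes MVK, PMVK and MVD lie near 10 RPKM. In CPM, HMGCS1 is above FDPS in both groups.

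Transcript GC content went with where control replicates 1 and 3 stood, on opposite sides of the control mean. The median GC content over GENCODE transcripts was 41.8% for HMGCS1, 42.5% for IDI1, 50.2% for ACAT2, 53.7% for FDPS, 59.5% for PMVK, 60.5% for MVK and 63.9% for MVD. For the 3 enzymes of lowest GC content control replicate 3 lay above the control mean and control replicate 1 below it, and for the other 4 the sides were exchanged. Control replicate 1 was close to the control mean for ACAT2 and FDPS, at -0.007 and 0.01 log2. Relative to the control mean, PMVK stood at -0.22 log2 in control replicate 3 and 0.13 log2 in control replicate 1. IDI1 stood at 0.091 log2 in control replicate 3 and -0.085 log2 in control replicate 1. Across tested genes, log2 CPM in control replicate 3 minus that in control replicate 1 had a Spearman rho of -0.66 with GC content, and genes are not independent replicates. That difference does not show which of these libraries departs from the others. With GC-corrected offsets the log2 fold changes of PA4 over control were 0.96 ± 0.022 for HMGCS1, 0.51 ± 0.033 for IDI1, 0.33 ± 0.027 for ACAT2, 0.16 ± 0.029 for FDPS, 0.084 ± 0.083 for PMVK, 0.48 ± 0.073 for MVK and 0.59 ± 0.07 for MVD (SE). These are within 0.03 of the values without offsets, each with a smaller SE, and 6 of 7 were called where 0.719% of all genes were called higher.

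**Figure D4:**
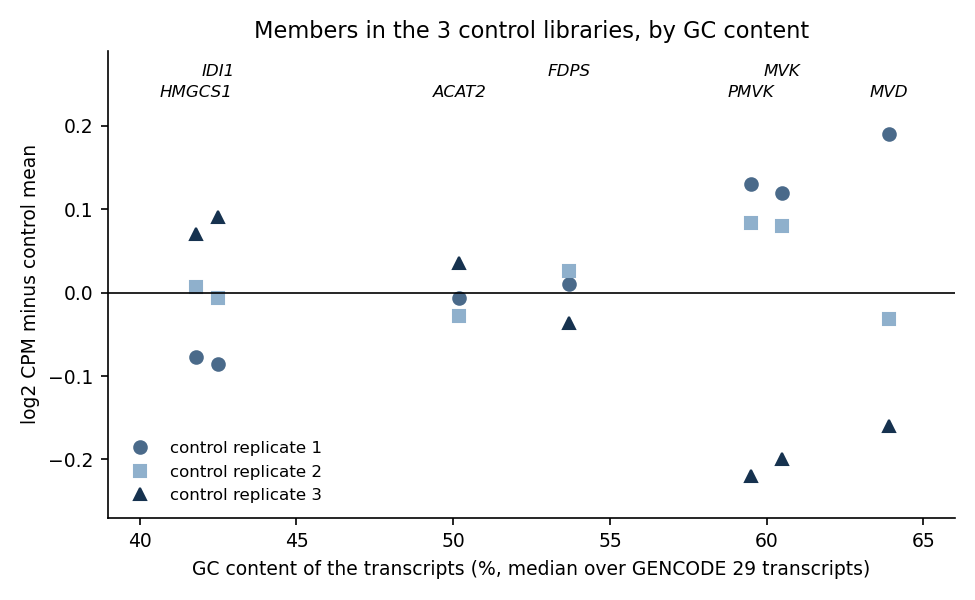
log2 CPM of each enzyme in each control library minus the mean of the 3 control libraries, against transcript GC content in percent. Control replicate 3 is above 0 for HMGCS1, IDI1 and ACAT2 and below 0 for FDPS, PMVK, MVK and MVD, and control replicate 1 lies on the other side of 0 for each. For ACAT2 and FDPS control replicate 1 is close to 0, at -0.007 and 0.01 log2.

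Past farnesyl diphosphate the branches differed in their counts. Of 12 genes of the sterol branch, 7 rose and 0 fell, with a median log2 fold change of 0.41, and 11 had an unadjusted p under 0.05 and a higher level. The 4 called genes with the largest change were MSMO1, a sterol demethylation enzyme, at 0.72 log2, SQLE, the squalene epoxidase, and CYP51A1, the lanosterol demethylase, at 0.48 log2 each, and LSS, the lanosterol synthase, at 0.42 log2. Of 19 genes of the non-sterol branch, edgeR, DESeq2 and limma-voom each called 0 in either direction, 0 had an unadjusted p under 0.05, and the median was -0.00042 log2. GGPS1, which extends farnesyl to geranylgeranyl diphosphate, was at 0.049 ± 0.067 log2 (SE), with 26.9 CPM with PA4 and 26 CPM in control. Over all tested genes the median was -0.004 log2 and 0.231% were called in either direction. An edgeR unadjusted p under 0.05 was found for 5.29% of them in either direction, and for 2.69% with a higher level. The difference between the branches was not tested.

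Relatives of the 7 enzymes, among them mitochondrial and peroxisomal counterparts, gave 0 calls, against 0.231% of all tested genes. ACAT1, the mitochondrial thiolase, was at -0.0067 ± 0.044 log2 (SE), with 81.3 CPM with PA4 and 81.7 CPM in control. IDI2, the other isomerase gene, had 0 counts in every library, which allows up to 0.131 to 0.164 CPM with PA4 and 0.156 to 0.158 CPM in control by a limit of 3 counts, for counting error only. Of 8 tested relatives, 1 had an unadjusted p under 0.05, against 5.29% of all tested genes in either direction. It was AACS, a cytosolic acetoacetyl-CoA synthetase, at 0.22 ± 0.058 log2 (SE) and an edgeR adjusted p of 0.26. DESeq2 and limma-voom also called 0 of them. AACS was named after its values were seen.

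Among 7 genes of SREBP regulation 1 rose and 0 fell. It was INSIG1, which holds SREBP in the endoplasmic reticulum, at 0.72 ± 0.037 log2 (SE). SREBF2, the gene of SREBP-2, was not called, at 0.16 ± 0.04 log2 (SE) with an edgeR adjusted p of 0.247, and its PA4 libraries, at 143, 147 and 145 CPM, lay above the control libraries, at 135, 129 and 126 CPM. SREBF1 was at -0.056 ± 0.065 log2 (SE), with an edgeR adjusted p of 0.993. Of 4 genes of acetyl-CoA supply 0 were called by edgeR and 3 had an unadjusted p under 0.05 and a higher level. Over all tested genes edgeR called 0.215% higher, and 2.69% had an unadjusted p under 0.05 and a higher level. Of the 4 genes of acetyl-CoA supply DESeq2 called 1 and limma-voom 0, where 0.397% and 0.206% of all genes they tested were called higher. ACLY, the ATP-citrate lyase, was at 0.14 ± 0.03 log2 (SE), with an edgeR adjusted p of 0.0828.

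The tested genes nearest to the 7 enzymes on the chromosome, or overlapping them, were 18 in number, and some lay far off. Those nearest to HMGCS1, ZNF131 and C5orf28, were 111146 and 130840 bases away. PFKP was 2010844 bases from IDI1, ADAR 296743 from PMVK and FAM222A 115700 from MVK. Of the 18 genes edgeR, DESeq2 and limma-voom each called 0, where edgeR called 0.231% of all tested genes in either direction. The median of the 18 was 0.022 log2. The extremes were HCN3, a channel gene before FDPS, at -0.25 ± 0.12 log2 (SE), and MMAB. HCN3 was the 1 neighbour of 18 with an unadjusted p under 0.05, a share near the 5.29% of all tested genes. RUSC1, whose span begins 229 bases after FDPS ends, was at 0.10 ± 0.12 log2 (SE). CYBA, 887 bases from MVD, was at -0.091 ± 0.10 log2 (SE), and PBXIP1, 1422 bases from PMVK, at 0.10 ± 0.093 log2 (SE).

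**Figure D5:**
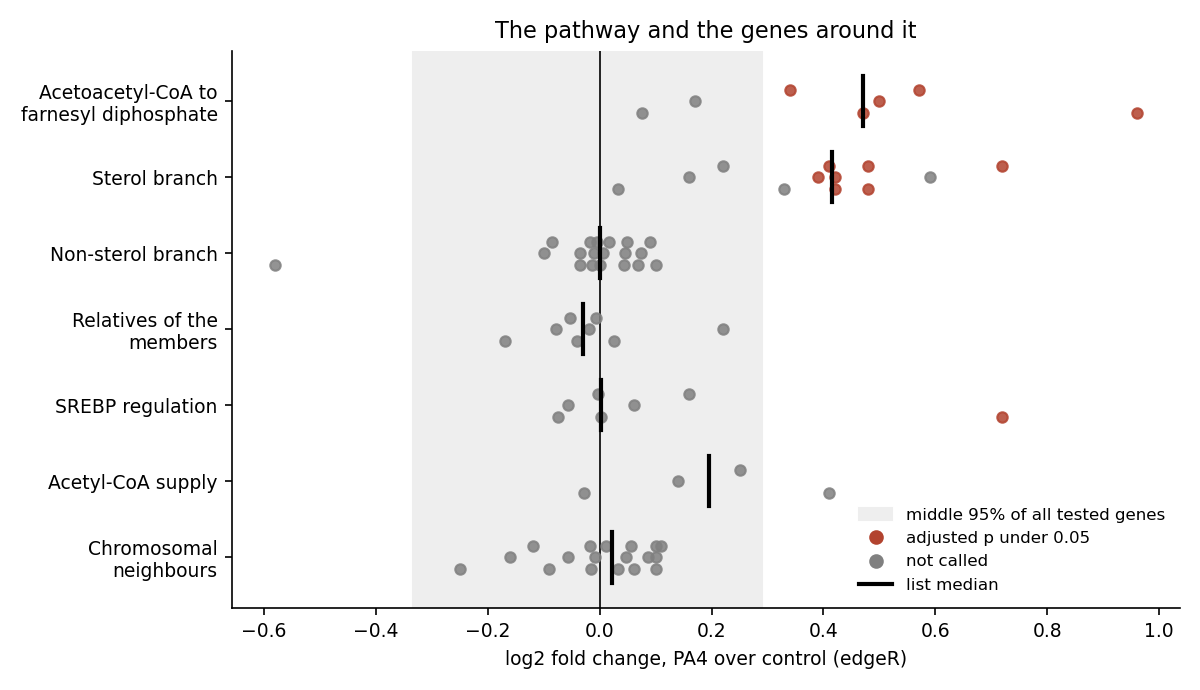
The log2 fold change of PA4 over control for each tested gene, by list, with the list median as a black bar and the middle 95% of all tested genes, -0.33 to 0.29, in grey. Called genes, in red, are in the 7 enzymes, the sterol branch and SREBP regulation, with 0 of 19 in the non-sterol branch and 0 of 18 among chromosomal neighbours. Over all tested genes 0.231% were called in either direction.

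Among the genes whose levels most resembled the mean profile of the 7 enzymes over the 6 libraries were CHI3L2, a chitinase-like gene, with a Pearson r of 0.995, ACLY and LSS with 0.993 each, FDFT1, the squalene synthase, with 0.991, and LONRF1, a RING finger gene, with 0.985. This was among 8557 genes with a mean of at least 10 CPM, before some were left out by name, and the points share the split into treatment groups. The names left out were of clone, LOC, noncoding, antisense or pseudogene form. The pattern used also drops other genes whose symbols end in P and digits. CHI3L2 had 70.5, 67.9 and 67.8 CPM in PA4 replicates 1 to 3, against 60.5, 61.2 and 58.1 CPM in control replicates 1 to 3. Its groups did not overlap, and it was not called, at 0.20 log2 with an edgeR adjusted p of 0.192.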

How the data were processed

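RNA of 6 libraries of H9 cells, 3 given PA4 and 3 given vehicle, was measured as raw counts of reads per gene, 1 column per library, in the table the authors deposited. The submitters' processing notes list Trimmomatic 0.39, fastp 0.23.2, STAR 2.7.9a and featureCounts from Subread 1.6.4, and the build hg38. Its annotation, strand setting and treatment of multiply aligned reads were not given in the sources used here, so reads of overlapping genes could be counted to either. The gene length in bases that the authors deposited was used for RPKM, computed here.

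The test was that of edgeR 4.0.16 under R 4.3.3: filterByExpr, TMM scaling, glmQLFit and glmQLFTest, two-sided, no covariate, all 6 libraries, adjusted by Benjamini-Hochberg over 12107 genes. CPM use TMM-scaled library sizes, SE and 95% intervals come from the F statistic, and fold changes are PA4 over control. Alternatives were DESeq2 1.42.0, limma-voom (limma 3.58.1), library size alone, DESeq2 size factors, no low-count filter, a replicate block, each library left out, and, chosen after seeing the data, GC-corrected offsets. The values of chromosomal neighbours and ratios under alternatives were also added then. The procedure was tested on simulated data. A chi-square test on counts found each pair of libraries to differ beyond sampling (1.48 to 6.81 per degree of freedom).

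The 7 enzymes and the gene lists were chosen with earlier results of these data known, and motifs after the sequences were seen. Named besides the 7 were up to 4 called genes of each list with the largest change, 5 genes whatever their values (SREBF1, SREBF2, ACAT1, IDI2, GGPS1), chromosomal neighbours, and the 5 genes most like the 7 by Pearson r among those not left out by name. AACS was named beyond this rule. Some genes of the sterol branch, the relatives and SREBP regulation were taken out of those lists, and of the genes most like the 7, after their values were seen and are not reported here; they stayed in the fit over all genes. Coordinates and sequences are from RefSeq, GRCh38.p14, printed without bases that GENCODE 29 annotates as untranslated, and exon overlaps and GC content from GENCODE 29, with a GC value for 94.5% of tested genes.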

Additional observations from a re-analysis of the deposited data

How the results depend on the processing

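Fold changes of the 7 enzymes kept their direction in each alternative setting except PMVK, which was at -0.024 log2 without control replicate 3. Of 7 enzymes, 5 were called in the reported fit and 3 to 6 when 1 library was left out, with 6 under the replicate block, no low-count filter and GC-corrected offsets, the sixth being FDPS each time. Among all tested genes, the reported fit called 28, of which 26 were higher and 2 lower. Without a low-count filter there were 62, with 53 higher and 9 lower, the replicate block 59, with 50 higher and 9 lower, GC-corrected offsets 109, with 87 higher and 22 lower, and DESeq2's Wald test 39, with 4 lower. Leaving out 1 library gave 17 to 74, with 16 to 50 higher and 1 to 24 lower, the most without control replicate 1 and the fewest without control replicate 2. The cause was not tested. Of 4 genes of acetyl-CoA supply, with 0 called in the reported fit, DESeq2 called 1, no low-count filter 2, the replicate block 2, GC-corrected offsets 3, and leaving out 1 library 0 to 1. Of the relatives of the 7, with 0 called, no low-count filter called 1, GC-corrected offsets 1, and leaving out 1 library 0 to 1. The sterol branch, with 7 called, had 5 to 9 when 1 library was left out and 11 with GC-corrected offsets. SREBP regulation, with 1 called, had 1 to 2 when 1 library was left out and 2 with GC-corrected offsets, SREBF2 being the second. The log2 ratio of IDI1 to MVD, at -0.059 for PA4 minus control, ranged from -0.20 to 0.068 when 1 library was left out, and was 0.068 without control replicate 3. Same-numbered libraries of the 2 groups deviated together with correlations of 0.065, -0.014 and 0.21, and differently numbered ones with -0.21 to 0.168. These values do not settle whether the numbers mark pairs. The labels do not say that they do, so the reported fit had no block. MVK, PMVK and MVD rested on 198 to 545 counts per library, against 1658 to 15232 for the other enzymes, and their SE were the largest.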
